A study of Mus musculus with 13 samples.

Results

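Transcript levels of CD8 T cells that had been left in tumors without regulatory T (Treg) cells were compared with those of the tumor Treg cells themselves, over all genes expressed in the T cells studied. The comparison used 6 of 13 RNA sequencing libraries, 3 of CD8 T cells from diphtheria toxin-treated mice (CD8 DTx, replicates 1, 2 and 3) and 3 of Treg cells from saline-treated mice (Treg PBS, replicates 1, 2 and 3). All mice, controls included, carried the Foxp3-EGFP-DTR allele, in which the Foxp3 gene also drives a fluorescent reporter and the toxin's receptor, so that diphtheria toxin (DTx) kills cells expressing Foxp3 and saline (PBS) spares them. All bore subcutaneous B16-F10 tumors, a mouse melanoma line, and the T cells were isolated from the tumors by flow cytometry. The other libraries, of CD4 conventional T (Tconv) cells and CD8 T cells from PBS-treated mice (CD4 PBS and CD8 PBS, n = 2 each, replicates 2 and 3) and CD4 DTx, n = 3, the Tconv cells left after toxin, entered the estimate of the spread and served as libraries outside the comparison. Cell type and treatment differed together between the groups compared, so their parts in any difference below cannot be told apart from these 6 libraries alone. Whether a library pooled several mice is not given in the sources used here. The labels describe enrichment of CD4 cells before sorting for every sample, those of CD8 cells included.

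CD8 T cells recognise peptides on MHC class I and kill target cells by releasing perforin and granzymes from cytotoxic granules, and effector CD8 cells also acquire receptors first described on natural killer (NK) cells. Treg cells are CD4 cells whose identity is set by the transcription factor Foxp3, and they restrain other T cells through molecules such as CTLA-4, the interleukin (IL)-2 receptor and cytokines. Both are antigen-experienced T cells in a tumor, so that activation receptors and cell cycle genes can be high in either.

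Testing was limited to genes that reached 10 normalized reads in 2 or more of the 13 libraries, which kept 12667 of 12963 genes and left out 296. A normalized read is a read count divided by 1 factor per library, without scaling by gene length, so levels are set side by side between libraries and not between genes. The genes closest to the filter were Kif17 on the inside, with 10.2 normalized reads in its second highest library, and Igkv8-24 on the outside, with 9.91. A gene was called where the limma adjusted p was under 0.05 and the groups differed more than 4-fold, a log2 fold change beyond 2 on the log2(value + 1) scale. By this rule 4.93% of the genes tested were called, 2.14% of them (271 genes) higher and 2.79% (353 genes) lower in CD8 DTx than in Treg PBS. These shares higher and lower are the background for the counts of every gene list below. The median log2 fold change was 4.13 among the genes called higher and -4.26 among those called lower. A single called gene had overlapping groups, since 270 of the 271 and all 353 lay wholly on their side of the other group, against 8.71% and 13.9% of all genes tested that did so upward and downward. The calls and the overlap rest on the same values, so the lack of overlap adds no support to the calls. All 3 Treg PBS libraries were at or under 3 reads for 64 of the genes called higher, and all 3 CD8 DTx libraries for 83 of those called lower.

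**Figure D1:**
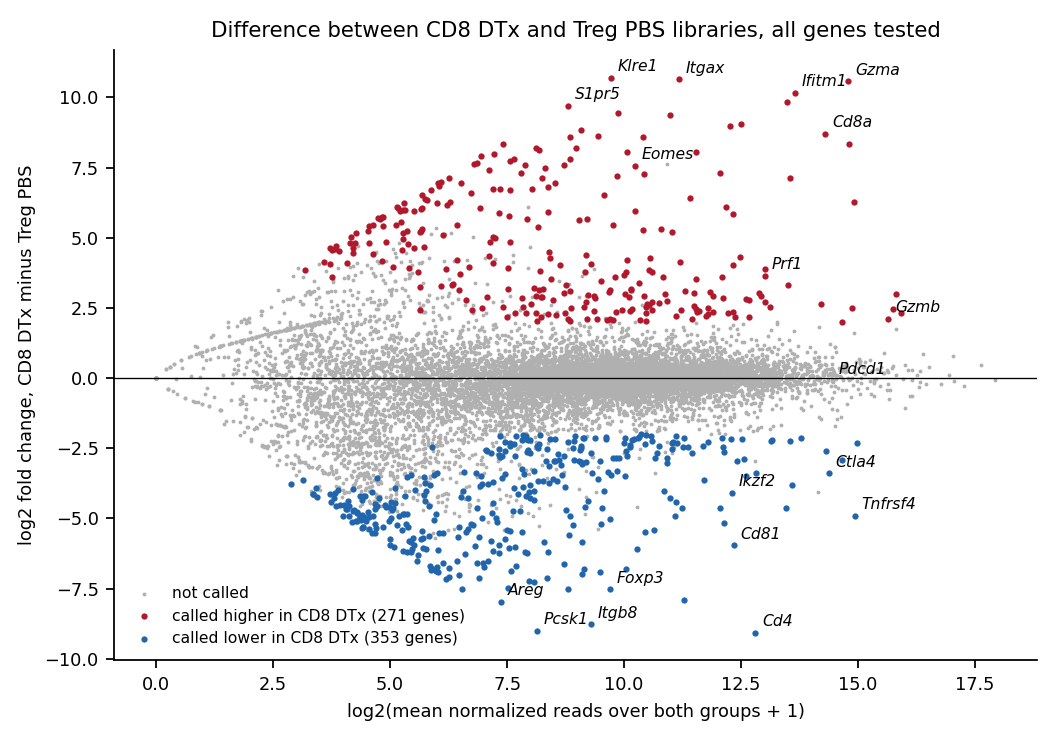
The x axis gives log2 of the mean normalized reads of both groups plus 1 and the y axis the log2 fold change of CD8 DTx over Treg PBS, with 1 point per gene tested, red for the 271 genes called higher, blue for the 353 called lower and grey for the rest. Klre1, Itgax and Gzma lie at the upper edge and Cd4, Pcsk1 and Itgb8 at the lower edge, whereas Pdcd1 lies near 0.

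The libraries differed in ways that touch these counts. CD8 DTx replicate 3 resembled the Treg PBS libraries less (Pearson r of log2 values across genes 0.804 to 0.829) than replicates 1 and 2 did (0.845 to 0.888), and without it 222 genes were called higher and 289 lower. Replicate 3 of every group had Y-linked transcripts and no Xist reads, and replicates 1 and 2 the reverse. Sex was thus balanced between CD8 DTx and Treg PBS. It was not balanced between CD4 DTx and CD4 PBS, which lacks replicate 1. Without replicate 3 of both groups, 191 genes were called higher and 177 lower. Without Treg PBS replicate 3 alone the genes called lower numbered 225. The 6 libraries held 17475086 to 29242251 reads.

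Lineage genes ran in the direction of the labels, with some reads of the other lineage on each side. The coreceptor gene Cd8a was at 48330, 44403 and 28002 normalized reads in CD8 DTx replicates 1, 2 and 3 and at 41.5, 105 and 180 in Treg PBS. Cd4, the coreceptor gene of the other lineage, was at 413, 0 and 40.4 in CD8 DTx and at 15678, 10595 and 16064 in Treg PBS. Foxp3 was at 3.70, 9.63 and 12.1 in CD8 DTx and at 1178, 1856 and 1896 in Treg PBS. Of the T cell receptor complex genes, Cd3e was at 27652, 36295 and 20880 in CD8 DTx and at 24284, 22614 and 23180 in Treg PBS, which overlapped (log2 fold change 0.24 ± 0.21 SE, adjusted p = 0.637). Among 14 lineage genes 3 were called higher, Cd8a, Cd8b1 and the adhesion receptor gene Crtam (2069, 2251 and 2041 against 0, 24.9 and 18.8), and Cd4 was called lower. The regulators of the choice between the lineages were not called, neither Zbtb7b, which directs the CD4 fate (184, 94.4 and 306 against 412, 350 and 903, log2 fold change -1.53 ± 0.84, adjusted p = 0.362), nor Runx3, which directs the CD8 fate (2918, 4384 and 4922 against 1799, 1773 and 2542). The Runx3 groups did not overlap and its adjusted p was 0.0191, but its log2 fold change of 0.99 ± 0.23 was under the threshold.

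Genes of the cytotoxic granule formed the first large block on the CD8 side. Of 26 tested, 16 were called higher and none lower, with a list median of 2.56 against -0.02 over all genes tested. Granzyme A and granzyme K, serine proteases of the granule, were nearly absent from Treg cells. Gzma was at 39350, 99846 and 30230 normalized reads in CD8 DTx and at 32.2, 28.2 and 34.1 in Treg PBS (log2 fold change 10.57 ± 0.79, adjusted p = 1.13e-05). Gzmk was at 11457, 14836 and 8302 in CD8 DTx against 33.0, 9.75 and 24.7 (9.05 ± 0.48, adjusted p = 1.36e-06). Gzmm was at 872, 1854 and 493 against 0, 7.58 and 0. In each case the lowest CD8 library was far above the highest Treg library, and CD8 DTx replicate 2 was the highest library.

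The other granule genes differed by degree. Prf1, which encodes the pore-forming protein perforin, was at 12785, 17976 and 14992 in CD8 DTx and at 1361, 947 and 1370 in Treg PBS, a log2 fold change of 3.64 ± 0.29 (adjusted p = 2.07e-05). Fasl, the ligand that triggers the death receptor Fas, was at 14066, 10837 and 7772 against 630, 503 and 458 (4.33 ± 0.35, adjusted p = 2.34e-05). Gzmb, the granzyme that activates caspases, was high in both cell types, at 104756, 80348 and 65338 in CD8 DTx and at 21686, 19202 and 16534 in Treg PBS. The Gzmb difference (2.11 ± 0.54, adjusted p = 0.0302) was only just past the threshold and its call was lost without any of Treg PBS replicates 1, 2 and 3 or CD8 DTx replicates 1 and 2 (adjusted p 0.0687 to 0.0979). Nkg7, a granule membrane protein gene, was also high in both, at 119071, 117971 and 64989 against 39068, 17413 and 11160, and its log2 fold change of 2.30 fell to 1.89 without Treg PBS replicate 3. Leaving out each of the 6 libraries in turn gave 12 to 14 cytotoxic granule genes called higher, and leaving out replicate 3 of both groups gave 9.

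**Figure D2:**
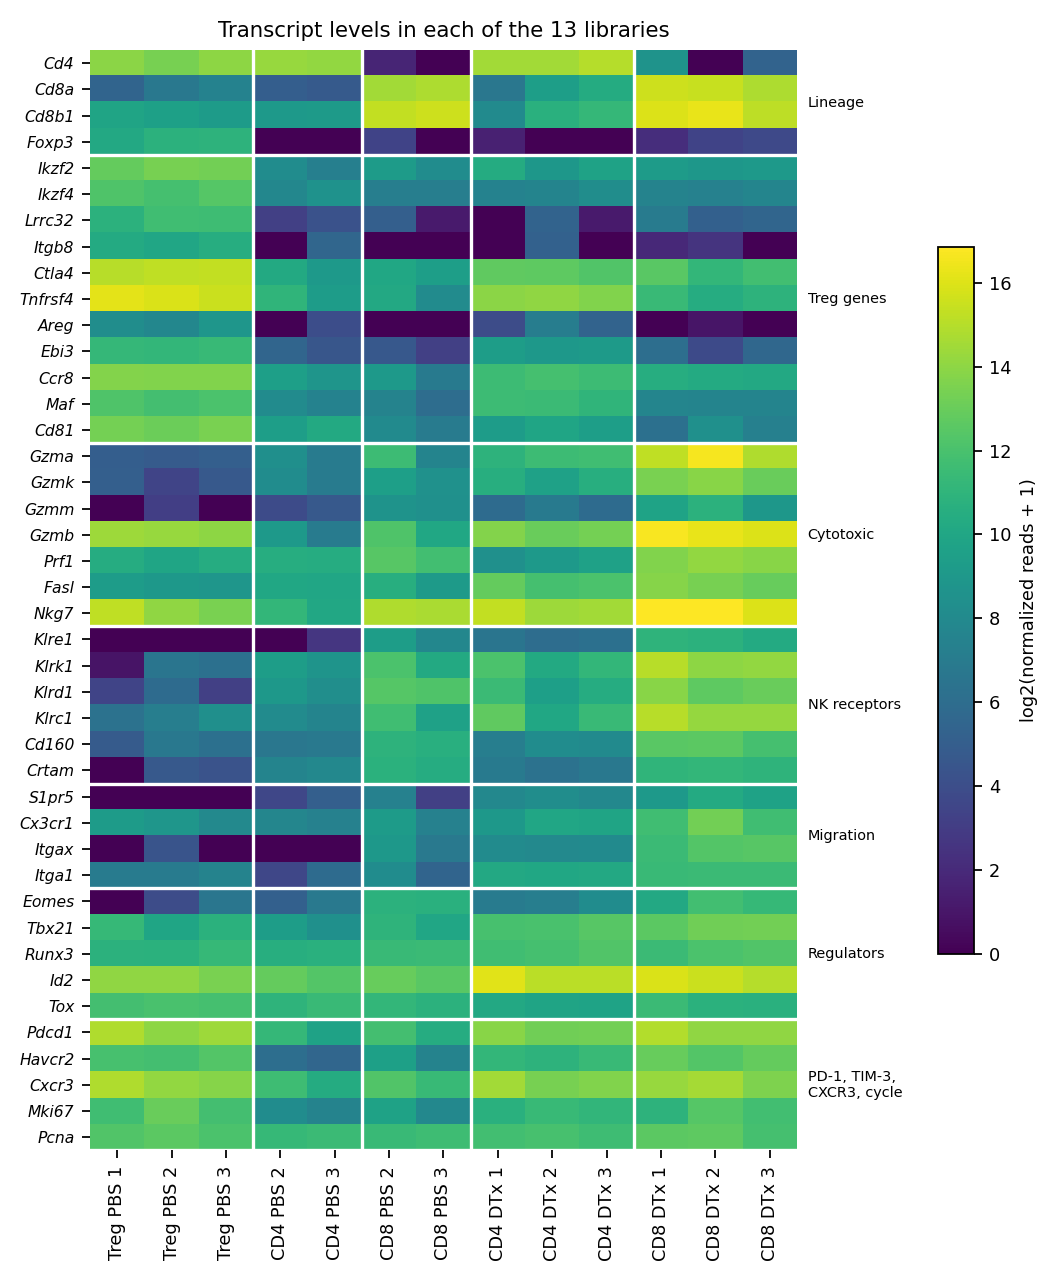
Each row is a gene and each column 1 of the 13 libraries, and the color gives log2(normalized reads + 1). The rightmost 3 columns (CD8 DTx) are dark for Foxp3, Itgb8 and Areg and bright for Gzma, Gzmk, Klrk1 and Klrd1, the leftmost 3 (Treg PBS) are dark for these cytotoxic and receptor genes, Gzmb and Nkg7 are bright in both, and Pdcd1, Cxcr3 and Pcna are alike in color.

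Several of these genes lie side by side in the genome. In the RefSeq gene order, which was used for order alone because the deposited table was made on another build, 11966 of the 12667 genes (94.5%) were placed, and 7 runs of at least 3 neighbouring tested genes called in the same direction held 35 genes. The genes of these runs that are named only here were chosen after their values had been seen. On chromosome 13, Gzma and Gzmk were flanked by Cdc20b, Gpx8 and Esm1. The Gpx8 call was lost without replicate 1 or 2 of either group (adjusted p 0.0529 to 0.0989), and by edgeR (0.221) and DESeq2 (0.203) on the recovered reads, and that of Cdc20b was lost by edgeR (0.0748). Esm1, which encodes a secreted proteoglycan, was at 1262, 1595 and 1307 in CD8 DTx and at 5.08, 0 and 5.89 in Treg PBS (8.64 ± 0.72, adjusted p = 2.83e-05). Cdc20b was at 71.1, 103 and 56.5 and at 0 in all 3 Treg PBS libraries, which makes it at least 21.8-fold higher, and the nearest tested genes beyond this run, Ccno and Snx18, were not called. Reads of the run were present in CD4 DTx as well for Esm1 (723, 276 and 391) but hardly for Cdc20b (35.5, 2.04 and 0). On chromosome 14, Gzmb, Gzmc and Gzmf formed a run, and Gzmd and Gzme were called higher beyond the uncalled Gzmg. Granzymes C to G are close copies of each other, so their separate values are uncertain. The protease genes Cma1 and Mcpt8, known from mast cells and basophils, follow on the same side of the cluster and were called higher too (5.17 ± 1.20, adjusted p = 0.0184, and 8.58 ± 2.21, adjusted p = 0.0309). Gzmf was at 1189, 149 and 1404 against 0, 1.08 and 1.18, at least 259-fold higher. On chromosome 13 the serpin genes Serpinb1a, Serpinb6b, Serpinb9, Serpinb9b and Serpinb1b formed another run, of which Serpinb9 encodes an inhibitor of granzyme B, and Serpinb1a was at 3039, 2754 and 1553 against 239, 335 and 363 (2.93 ± 0.43, adjusted p = 0.00111). The Serpinb1b call was lost without Treg PBS replicates 1 or 3 or any 1 CD8 DTx replicate (adjusted p 0.0636 to 0.118), and by edgeR (0.271) and DESeq2 (0.124).

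**Figure D3:**
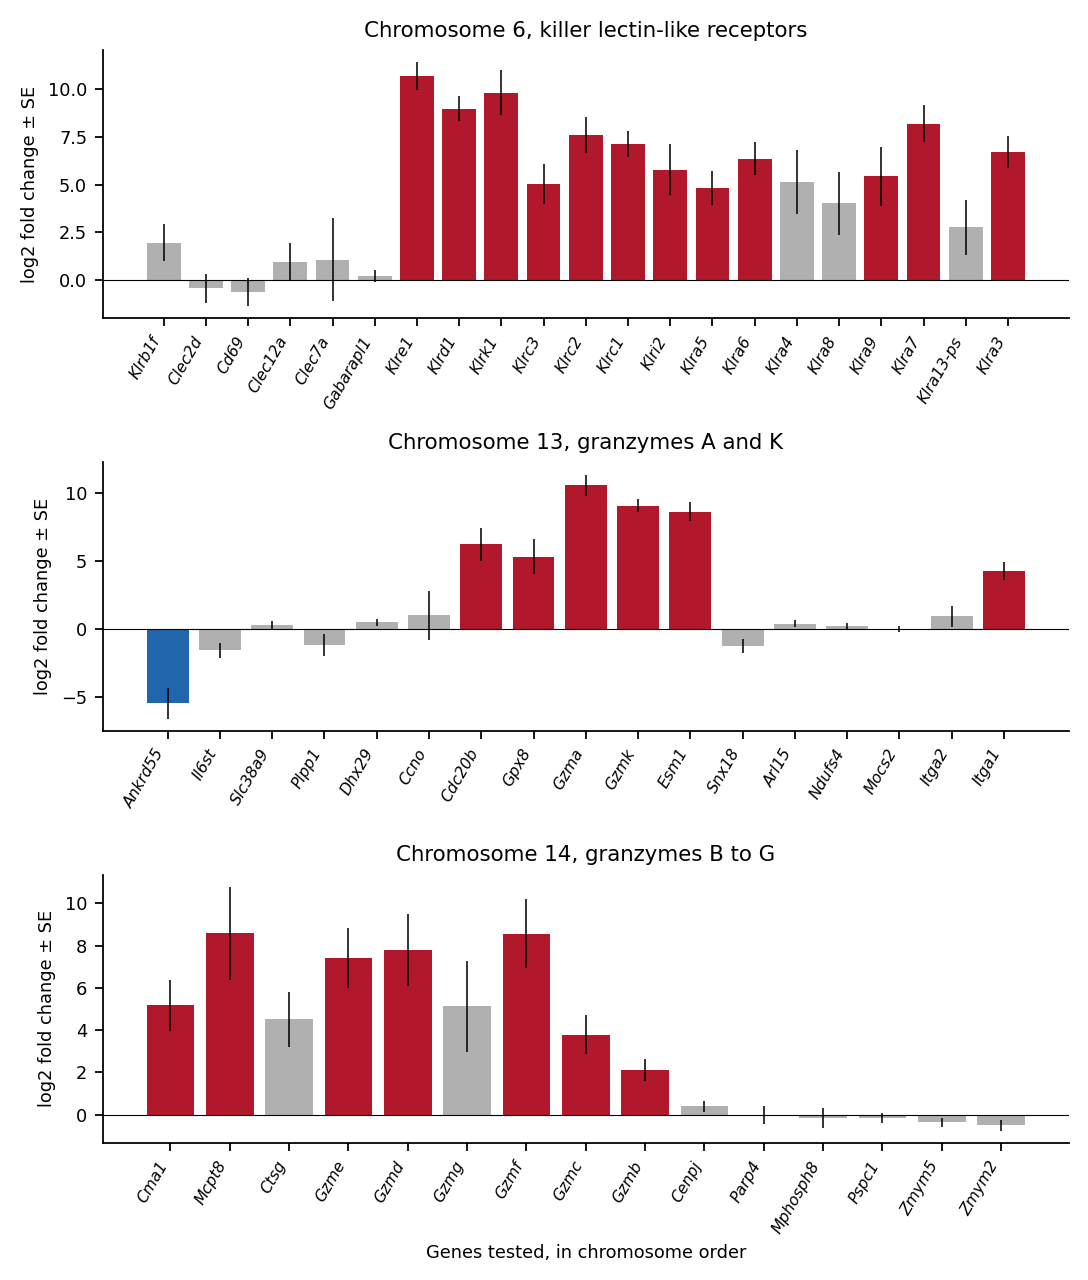
Bars give the log2 fold change of CD8 DTx over Treg PBS for tested genes in chromosome order, with the standard error of the fit, around the killer lectin-like receptors (top), granzymes A and K (middle) and granzymes B to G (bottom); red bars were called higher, blue lower and grey not called. The 9 genes from Klre1 to Klra6 and the 5 from Cdc20b to Esm1 are red without a gap in this fit, although the Gpx8 and Cdc20b calls were lost in alternatives.

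The sequences before the transcription start are shown for called granule, receptor and Treg genes, Gzmb called only just, since neighbouring granzyme genes differed together. They are the 150 bases before the start on the gene's strand, 5′ to 3′, from RefSeq on GRCm38.p6, and capitals mark TGTGGT or its reverse complement ACCACA, the letters that RUNX factors are known to bind.
Gzma, chr13:113100982-113101131, minus strand: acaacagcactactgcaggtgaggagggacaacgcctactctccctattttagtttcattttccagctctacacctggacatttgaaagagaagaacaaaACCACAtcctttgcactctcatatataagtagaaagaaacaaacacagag
Gzmk, chr13:113180966-113181115, minus strand: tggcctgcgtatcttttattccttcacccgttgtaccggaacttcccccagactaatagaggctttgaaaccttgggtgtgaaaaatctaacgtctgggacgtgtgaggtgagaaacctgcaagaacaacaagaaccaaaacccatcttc
Gzmb, chr14:56262335-56262484, minus strand: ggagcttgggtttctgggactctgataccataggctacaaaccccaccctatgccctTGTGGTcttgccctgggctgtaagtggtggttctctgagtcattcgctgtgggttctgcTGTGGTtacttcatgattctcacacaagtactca
Prf1, chr10:61297686-61297835, plus strand: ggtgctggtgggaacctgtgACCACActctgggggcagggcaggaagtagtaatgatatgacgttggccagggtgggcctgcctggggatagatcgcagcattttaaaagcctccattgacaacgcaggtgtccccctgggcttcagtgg
Klrk1, chr6:129623865-129624014, minus strand: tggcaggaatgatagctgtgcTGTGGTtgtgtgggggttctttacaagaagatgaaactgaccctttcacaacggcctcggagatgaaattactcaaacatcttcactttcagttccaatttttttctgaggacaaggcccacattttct
Areg, chr5:91139449-91139598, plus strand: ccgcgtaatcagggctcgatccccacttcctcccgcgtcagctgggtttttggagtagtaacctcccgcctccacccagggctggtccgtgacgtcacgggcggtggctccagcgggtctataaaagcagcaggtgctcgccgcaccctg
Itgb8, chr12:119238277-119238426, minus strand: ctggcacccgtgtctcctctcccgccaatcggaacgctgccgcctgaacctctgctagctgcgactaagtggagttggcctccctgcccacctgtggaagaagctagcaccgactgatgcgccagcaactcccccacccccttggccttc
Gzma held 1 match, 50 bases before the start, Prf1 held 1 at 130, Klrk1 held 1 at 129 and Gzmb held 2, at 93 and 34. Gzmk, Areg and Itgb8 held none in this window. Of the 27025 genes with a promoter sequence, 9.73% held a match in the same window, and these genes were picked with their matches known, so the matches describe these sequences and nothing further. A comparison of the 271 and 353 genes was void, since 78.6% and 75.4% of them had a sequence, under the 80% required.

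Receptors of the killer lectin-like and NK cell families formed the second block. Of 30 tested, 18 were called higher in CD8 DTx and none lower, with a list median of 5.09. Leaving out each of the 6 libraries gave 14 to 22, and leaving out replicate 3 of both groups gave 12. Klre1, which encodes a receptor chain of NK cells, was at 1980, 1848 and 1246 in CD8 DTx and at 0 in all 3 Treg PBS libraries, at least 479-fold higher. Klrk1, the gene of the activating receptor NKG2D, was at 34639, 16124 and 17709 against 0.85, 93.2 and 75.3 (9.82 ± 1.17, adjusted p = 0.000271). Klrd1, whose product CD94 pairs with NKG2A, was at 14727, 6593 and 8244 against 10.2, 59.6 and 8.24, and Klrc1, which encodes NKG2A, at 34275, 18332 and 18320 against 81.3, 149 and 332. Both receptor chains were thus high in all 3 CD8 libraries and no higher than 332 normalized reads in Treg cells. Klre1, Klrd1, Klrk1, Klrc3, Klrc2, Klrc1, Klri2, Klra5 and Klra6 stand next to each other among the tested genes of chromosome 6, and all 9 were called higher. The Klra and Klrc genes are families of close copies, so their single values are uncertain. One receptor of this list ran the other way without a call, Klrg1, a marker of terminal effectors, at 3134, 7100 and 3142 in CD8 DTx against 12492, 7400 and 9048 in Treg PBS (-1.19 ± 0.55, adjusted p = 0.257).

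Genes that mark NK cells themselves moved with this block, in part because the lists share members, such as Klrb1c and Ncr1. Of 10 NK marker genes 7 were called higher, and their summed level was 41212 to 132543 normalized reads in CD8 DTx and 667 to 1080 in Treg PBS. Much of that sum was Gzma, which CD8 cells also express. Ncr1, the gene of the NK receptor NKp46, was at 17.6, 2147 and 599 in CD8 DTx replicates 1, 2 and 3 and at 0, 0 and 1.18 in Treg PBS. Tyrobp, the adaptor DAP12 of NK receptors, was at 38.8, 2204 and 953 against 218, 182 and 48.3 and was not called (1.80 ± 1.33, adjusted p = 0.54). Both were lowest in CD8 DTx replicate 1 and highest in replicate 2, as were Klrb1c (292, 2964 and 1265), Klra7 (108, 1113 and 432), Fcer1g (366, 2358 and 810) and S1pr5. Gzma was also highest in replicate 2, and Klrk1, Klrd1 and Klrc1 were highest in replicate 1. Without CD8 DTx replicate 2 the killer lectin-like and NK receptor list held 14 calls. The part of NK cells in these differences was not tested. Of 9 gamma delta and innate-like T cell markers 3 were called higher, and the list summed to 3094 to 6246 against 253 to 489. Tcrg-C2, a constant segment of the T cell receptor gamma locus, was at 5930, 3922 and 2221 against 0, 20.6 and 7.06, highest in replicate 1. Trgv2, a variable segment of that locus, was at 2800, 1841 and 956 against 0, 2.17 and 3.53. The call of 5830411N06Rik, another of these markers, was lost without 5 of the 6 libraries (adjusted p 0.0639 to 0.106). The part of gamma delta T cells was not tested. Sox13 and Zbtb16, regulators of innate-like T cells, were at 0 to 7.70 and 0 to 6.47 in CD8 DTx.

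Of 87 transcription factors tested, 3 (3.45%) were called higher and 5 (5.75%) lower, against 2.14% and 2.79% of all genes tested, with a list median of -0.41. Eomes, a T-box factor of effector and memory CD8 cells, was at 1154, 3462 and 2475 in CD8 DTx and at 0, 14.1 and 96.5 in Treg PBS (7.56 ± 1.22, adjusted p = 0.00206). Its relative Tbx21, which encodes T-bet, was at 6250, 9606 and 9897 against 2531, 966 and 1765, and its log2 fold change of 2.37 was 1.99 without Treg PBS replicate 2. Zfp683, which encodes the tissue-residency factor Hobit, was called higher at low levels (65.6, 151 and 285 against 16.9, 4.33 and 12.9), and its call was lost without Treg PBS replicate 2, CD8 DTx replicate 2 or CD8 DTx replicate 3 (adjusted p 0.0596 to 0.0741). On the Treg side stood Foxp3, Ikzf2, Ikzf4, Maf and Pparg. Maf, a regulator of IL-10 in CD4 cells, was at 204, 191 and 194 in CD8 DTx and at 4740, 3576 and 4296 in Treg PBS (-4.41 ± 0.34, adjusted p = 1.59e-05). Pparg, a factor of tissue Treg cells, was at 26.8, 17.3 and 5.38 against 628, 289 and 340 (-4.74 ± 0.97, adjusted p = 0.009). Without Treg PBS replicate 2 or CD8 DTx replicate 2, 2 factors were called higher, and without Treg PBS replicate 3 or CD8 DTx replicate 1, 5 were.

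Factors of effector differentiation and exhaustion were mostly not called. Id2, which supports effector cells, was at 60581, 47735 and 32008 in CD8 DTx against 17159, 16761 and 11454, with an adjusted p of 0.00818 and a log2 fold change of 1.60 ± 0.32 that stayed under the threshold. Tox, a factor of exhausted CD8 cells, was lower in CD8 DTx at 2892, 1764 and 1676 against 3693, 4176 and 3852 (-0.93 ± 0.23, adjusted p = 0.0236), also under the threshold. Batf (-0.61 ± 0.28, adjusted p = 0.251), Irf4 (-0.86 ± 0.49, adjusted p = 0.393), Prdm1 (-1.46 ± 0.47, adjusted p = 0.0852) and Gata3 (-0.21 ± 0.37, adjusted p = 0.845) did not pass the test. Tcf7, the factor of naive and stem-like cells, was at 4346, 6869 and 4389 against 395, 3020 and 3807 and was not called (1.62 ± 0.63, adjusted p = 0.161), Treg PBS replicate 1 being the lowest of the 6.

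Treg identity genes formed the block on the other side. Of 22 tested, 17 were called lower in CD8 DTx and none higher, with a list median of -3.74. Leaving out each of the 6 libraries gave 12 to 16 calls. Ikzf2 and Ikzf4, which encode the Ikaros family factors Helios and Eos, were at 620, 485 and 546 and at 189, 167 and 199 normalized reads in CD8 DTx, against 7511, 11018 and 9964 and 4688, 3786 and 5395 in Treg PBS. The spread within each group was small beside these differences, and the adjusted p was 6.24e-05 for Ikzf2 and 5.22e-06 for Ikzf4. Itgb8, the integrin chain with which Treg cells release active TGF-beta, was at 2.77, 4.82 and 0 against 1261, 997 and 1464. Lrrc32 encodes GARP, which holds latent TGF-beta at the cell surface, and was at 127, 35.6 and 44.4 against 1822, 3254 and 3134 (-5.47 ± 1.29, adjusted p = 0.0196). The Lrrc32 call was lost without Treg PBS replicates 2 or 3 or CD8 DTx replicates 2 or 3 (adjusted p 0.0552 to 0.0789). Areg, the growth factor amphiregulin, was at 0, 0.96 and 0 against 301, 221 and 460, at least 81.1-fold lower. Pcsk1, a prohormone convertase gene, was at 0 in all 3 CD8 libraries and at 453, 330 and 888 in Treg PBS, at least 138-fold lower. Ebi3, a subunit of IL-35, was at 67.4, 12.5 and 48.5 against 2449, 2283 and 2613 (-6.10 ± 0.60, adjusted p = 7.77e-05).

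Among the 12 largest differences on the Treg side were genes with less familiar roles in Treg cells. Neb, the gene of the muscle protein nebulin, was at 65.6, 125 and 0 in CD8 DTx and at 4876, 4602 and 5227 in Treg PBS (-7.91 ± 1.71, adjusted p = 0.0124). Rln3, the gene of the peptide relaxin 3, was at 0.92, 7.70 and 1.35 against 715, 463 and 425 (-7.26 ± 0.91, adjusted p = 0.000359). Hpn, which encodes the membrane protease hepsin, was at 0 in all 3 CD8 libraries and at 155, 117 and 164 in Treg PBS, at least 36.0-fold lower. Gpr83, a receptor gene of Treg cells, was at 0, 0 and 40.4 against 173, 1352 and 1117, and its call was lost without replicate 2 of either group (adjusted p 0.0505 and 0.0515) and by edgeR (0.053). Kctd12b, Tdpoz4 and Fam83g completed the set, and the Fam83g call was lost without Treg PBS replicate 3 or CD8 DTx replicate 1 (adjusted p 0.0577 and 0.0532), without replicate 3 of both groups (0.139) and by edgeR (0.124) and DESeq2 (0.262). A run of 7 neighbouring genes on chromosome 14, from 2610042L04Rik to Gm3558, was called lower as well, with at most 9.24 normalized reads in CD8 DTx. By edgeR on the recovered reads none of the 7 was called (adjusted p 0.0642 to 0.162), by DESeq2 Gm3558 was not (0.294), and the Gm3636 call was lost without Treg PBS replicates 1, 2 or 3 or CD8 DTx replicate 2 (adjusted p 0.069 to 0.14). Its members are near-identical copies whose separate values are uncertain.

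Of 21 costimulatory receptors of the TNF receptor and CD28 families, 5 were called lower in CD8 DTx and none higher, with a list median of -1.46. At an unadjusted limma p under 0.05, 10 were lower and 3 higher. Tnfrsf4, the gene of OX40, was at 2815, 1402 and 1906 in CD8 DTx and at 73550, 61302 and 45931 in Treg PBS (-4.92 ± 0.51, adjusted p = 0.000106). Tnfrsf18, the gene of GITR, was at 8749, 4666 and 4400 against 46220, 31696 and 26620, and Tnfrsf9, the gene of 4-1BB, at 16109, 8102 and 9002 against 51911, 46807 and 60509. All 3 receptors were well expressed in the CD8 cells and still did not reach the lowest Treg library. Icos, a CD28 relative, had separate groups, at 17348, 9654 and 7147 against 31768, 36408 and 37525, and an adjusted p of 0.00937, with a log2 fold change of -1.73 ± 0.36 under the threshold. Cd27 was not called (-0.62 ± 0.24, adjusted p = 0.163).

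Inhibitory receptors divided 3 and 3 among 19 tested, with a list median of 0.30. Ctla4, which competes with CD28 for its ligands, was at 6054, 2335 and 3395 in CD8 DTx and at 34182, 39765 and 41133 in Treg PBS (-3.39 ± 0.35, adjusted p = 9.68e-05), and Cd200 and Cd200r1 were the others called lower. Cd160, a receptor of cytotoxic cells, was at 5851, 6378 and 3765 against 27.9, 105 and 73.0 (6.41 ± 0.45, adjusted p = 7.33e-06), and Lair1 and Cd244 were the others called higher. The Cd244 call was lost without any one of the 6 libraries (adjusted p 0.0665 to 0.112), and that of Cd200r1 without Treg PBS replicates 1 or 3 or CD8 DTx replicates 2 or 3 (log2 fold change as small as -1.82). Pdcd1, Havcr2, Lag3 and Tigit were in neither set, although the groups did not overlap for Lag3 and Tigit. Pdcd1, the gene of PD-1, was at 30565, 17086 and 17330 against 30243, 16352 and 21598 (-0.08 ± 0.44, adjusted p = 0.957). Havcr2, the gene of TIM-3, was at 8046, 5197 and 7600 against 4019, 3541 and 5262 (0.69 ± 0.42, adjusted p = 0.417), with overlapping groups. Lag3, which binds MHC class II, was at 603, 396 and 650 against 321, 170 and 211 (1.25 ± 0.82, adjusted p = 0.476), and Tigit was at 5614, 5996 and 1559 against 15877, 12497 and 11604 (-1.82 ± 0.53, adjusted p = 0.0548).

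Receptors that guide migration separated the cell types in both directions, with 4 of 32 called higher in CD8 DTx, 6 lower and a median of -0.09. S1pr5, a sphingosine 1-phosphate receptor of effector and NK cells, was at 547, 1287 and 826 in CD8 DTx and at 0 in all 3 Treg PBS libraries, at least 251-fold higher. Cx3cr1, the fractalkine receptor gene of cytotoxic effectors, was at 3305, 9946 and 3318 against 616, 468 and 244 (3.53 ± 0.55, adjusted p = 0.00171), and Cxcr6 was at 129136, 86490 and 64091 against 21626, 10504 and 18926 (2.46 ± 0.42, adjusted p = 0.00291). Ccr8, a receptor of tumor Treg cells, was at 1442, 1264 and 1135 against 13693, 13045 and 12961 (-3.38 ± 0.41, adjusted p = 0.000312), and Ccr4, a skin-homing receptor, at 139, 335 and 99.6 against 1985, 1818 and 1801 (-3.47 ± 0.57, adjusted p = 0.00245). Neither group overlapped the other for these 5 genes. Ccr2 and Cxcr3, receptors for inflammatory chemokines, were not called, and Cxcr3 was at 19989, 24379 and 12512 against 29299, 17724 and 14217 (-0.09 ± 0.43, adjusted p = 0.947). Without Treg PBS replicate 2 the receptors called lower numbered 3, and without replicate 3 of both groups 2.

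Integrins held some of the largest single differences. Of 23 tested, 5 (21.7%) were called higher and 1 (4.35%) lower, against 2.14% and 2.79% of all genes tested. The list median was 0.46. Itgax, the gene of CD11c, was at 2852, 5134 and 5785 in CD8 DTx and at 0, 19.5 and 0 in Treg PBS (10.65 ± 1.01, adjusted p = 6.24e-05). It also belongs to the dendritic cell markers, whose other called members, Cd74, H2-Aa and H2-Eb1, went the opposite way. Itga1, a chain of the collagen receptor VLA-1, was at 2805, 2818 and 2918 against 126, 131 and 184 (4.29 ± 0.64, adjusted p = 0.00129). Itgae, whose product binds E-cadherin, was not called (-1.72 ± 0.68, adjusted p = 0.173). The calls of Itga2b and Itgad rested on low and uneven values, such as 1.85, 200 and 92.9 for Itga2b against 0 in all Treg PBS libraries. The count of integrins called higher was 2 without CD8 DTx replicate 2 and 3 without CD8 DTx replicate 3, without any 1 Treg PBS replicate or without either CD8 PBS replicate.

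Genes of soluble factors were called on both sides. Ifng, the gene of interferon gamma, was at 9423, 2672 and 3401 in CD8 DTx and at 568, 291 and 977 in Treg PBS (3.01 ± 0.50, adjusted p = 0.00253). Ccl5, a chemokine of effector T cells, was at 52474, 60574 and 35540 against 19914, 5966 and 5176 (2.51 ± 0.50, adjusted p = 0.00777). Tnf did not differ past the test (851, 239 and 662 against 337, 458 and 737, 0.08 ± 0.53, adjusted p = 0.963), nor did Il2 (2.12 ± 0.88, adjusted p = 0.198). Il10, the suppressive cytokine gene, was at 49.0, 55.9 and 8.08 in CD8 DTx and at 1081, 783 and 2214 in Treg PBS, with separate groups, a log2 fold change of -5.38 ± 1.59 and an adjusted p of 0.0591 that just missed the threshold. Among 20 chemokine ligands 5 were called higher and 1 lower, but 2 were called higher without Treg PBS replicate 2 or 3 and 3 without any 1 CD8 DTx replicate. Of 36 cytokine genes 3 (8.33%) were called higher and 2 (5.56%) lower, against 2.14% and 2.79% of all genes tested. Il4, 1 of the 3, was at 13.9, 40.4 and 16.2 against 5.08, 0 and 0. Its call was lost without 5 of the 6 libraries (adjusted p 0.051 to 0.121).

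Of 50 cytokine receptor and SOCS genes, 2 (4%) were called higher and 6 (12%) lower, against 2.14% and 2.79% of all genes tested, with a median of -0.51. Il12rb2, a chain of the IL-12 receptor, was at 9871, 6428 and 6944 in CD8 DTx and at 995, 1051 and 1138 in Treg PBS (2.84 ± 0.49, adjusted p = 0.00318). Il18rap, a chain of the IL-18 receptor, was at 13556, 12693 and 13783 against 1260, 1576 and 2239 (3.02 ± 0.33, adjusted p = 0.000141), while its partner Il18r1 was not called (0.76 ± 0.31, adjusted p = 0.18). Il1r2, the decoy receptor of IL-1, was at 1643, 593 and 1088 against 11407, 11852 and 10980 (-3.48 ± 0.35, adjusted p = 8.34e-05). Il2ra, the high-affinity chain of the IL-2 receptor, was at 4084, 2442 and 2812 against 11400, 19950 and 13052, and its adjusted p of 0.00986 became 0.0528 without Treg PBS replicate 2. Ifngr2, a chain of the interferon gamma receptor, was at 19.4, 47.2 and 12.1 against 271, 318 and 526 (-3.93 ± 0.72, adjusted p = 0.00453). Without CD8 DTx replicate 1 the receptors called lower numbered 3.

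**Figure D4:**
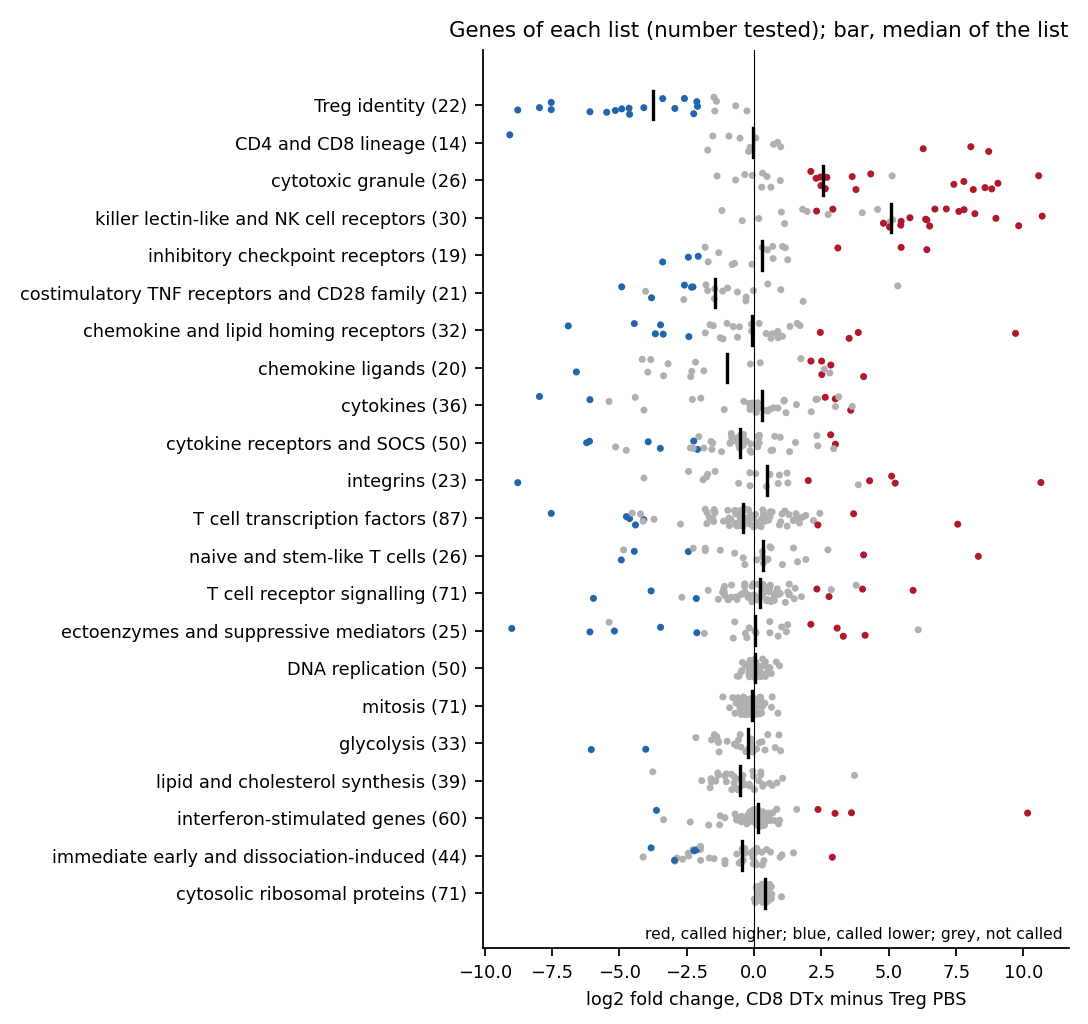
Each point is a tested gene, placed by its log2 fold change of CD8 DTx over Treg PBS in the row of its gene list, with the number tested in parentheses and a black bar at the list median; red, called higher, blue, called lower, grey, not called. The cytotoxic granule and NK receptor rows reach to the right, the Treg identity row to the left, and the DNA replication, mitosis and ribosomal rows hold no colored point.

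Lists of proliferation and basic metabolism held few calls or none, where 2.14% of all genes tested were called higher and 2.79% lower. None of 50 DNA replication genes, 71 mitosis genes, 71 cytosolic ribosomal protein genes or 39 lipid and cholesterol synthesis genes was called, by limma in either direction, with medians of 0.05, -0.07, 0.39 and -0.51, and none of these 4 counts left 0 when any 1 of the 6 libraries was left out or when edgeR or DESeq2 was used on the recovered reads. At an unadjusted limma p under 0.05 there were 2 higher and 0 lower for DNA replication, 1 and 3 for mitosis, 8 and 0 for ribosomal proteins and 2 and 14 for lipid synthesis. Mki67, a marker of cycling cells, was at 1895, 5508 and 3525 in CD8 DTx and at 3253, 8115 and 3685 in Treg PBS (-0.47 ± 0.51, adjusted p = 0.72). Pcna, the sliding clamp of DNA synthesis, was at 6384, 6665 and 3759 against 5079, 6374 and 4430 (0.05 ± 0.23, adjusted p = 0.944). Replicate 2 was the highest library of each group for Mki67. A value that misses the threshold does not show equal levels. Of 33 glycolysis genes 2 were called lower, Eno2, a glycolytic enolase (2.77, 0 and 0 against 105, 103 and 97.7), and Ldhb, a lactate dehydrogenase chain (158, 68.4 and 55.2 against 1639, 1614 and 1007, -4.02 ± 0.43, adjusted p = 0.000135).

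Interferon-stimulated genes held 4 calls higher (6.67%) and 1 lower (1.67%) among 60, against 2.14% and 2.79% of all genes tested. The list median was 0.15. Ifitm1, whose product restricts virus entry, was at 33090, 29091 and 14751 in CD8 DTx and at 0.85, 78.0 and 64.7 in Treg PBS (10.15 ± 1.43, adjusted p = 0.000852), and its neighbours Ifitm2 and Ifitm3 on chromosome 7 were called higher too, Ifitm3 with a call lost without Treg PBS replicate 3 or CD8 DTx replicate 1 (adjusted p 0.055 and 0.0506). Isg15 and Ifit1 were not called, and Ifit1 was at 4768, 2177 and 1765 against 4186, 1511 and 1778 (0.23 ± 0.60, adjusted p = 0.9). Iigp1, a GTPase induced by interferon gamma, was lower in CD8 DTx at 584, 352 and 485 against 9592, 4043 and 4867 (-3.63 ± 0.37, adjusted p = 8.95e-05). Ly6c2, a surface antigen of effector and memory CD8 cells, was at 76839, 53274 and 40926 against 306, 282 and 57.7 (8.32 ± 0.60, adjusted p = 9.34e-06).

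Of 71 T cell receptor signalling genes 4 (5.63%) were called higher and 3 (4.23%) lower, against 2.14% and 2.79% of all genes tested. The list median was 0.23. Themis, a signalling protein of developing and mature T cells, was at 11712, 12594 and 9946 in CD8 DTx and at 1677, 1556 and 1722 in Treg PBS (2.78 ± 0.23, adjusted p = 2.83e-05). Cd81, a tetraspanin gene, was at 73.9, 356 and 160 against 10477, 8695 and 11533 (-5.96 ± 0.48, adjusted p = 2.07e-05). Lck and Zap70, the kinases at the receptor, were not called (0.35 ± 0.21, adjusted p = 0.405, and 0.34 ± 0.19, adjusted p = 0.377). The genes called lower numbered 1 without Treg PBS replicate 2, Treg PBS replicate 3, CD8 DTx replicate 1 or CD8 DTx replicate 2, and those called higher 2 without Treg PBS replicate 1. Of 44 immediate early and dissociation-induced genes 1 (2.27%) was called higher and 4 (9.09%) lower, against the same shares of all genes. The lower count was 2 without Treg PBS replicate 3, in which Fos was at 38019 against 427 and 2378 in replicates 1 and 2.

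Marker genes of other cells, apart from the NK and gamma delta T cell lists above, were called only lower in CD8 DTx, except for Itgax. Melanocyte markers summed to 359 to 573 normalized reads in CD8 DTx and 1365 to 1894 in Treg PBS, with 1 of 7 called lower (Dct, 14.8, 0 and 0 against 297, 205 and 238). Macrophage and monocyte markers summed to 1919 to 2782 against 1414 to 4431, with 3 of 13 called lower, and B cell markers to 486 to 1805 against 493 to 1224, with 1 of 7 called lower. Stroma and endothelium markers summed to 953 to 1464 against 1691 to 2154, with 1 of 4 called lower. Erythroid markers summed to 16.6 to 801 against 1850 to 3223 and neutrophil markers to 42.5 to 631 against 15.3 to 94.2, with none of 4 called in each list. The dendritic cell list summed to 4497 to 7988 against 23010 to 30400, with 1 of 10 called higher and 3 lower. Cd74, the invariant chain of MHC class II, made up most of the last sum, at 504, 1428 and 888 against 22176, 23197 and 19226 (-4.64 ± 0.50, adjusted p = 0.000141). Clec9a, a defining gene of cross-presenting dendritic cells, was at 0 in all 13 libraries. The calls of Dct, H2-Aa, H2-Eb1, Lyz2, C1qc and Cd79a were each lost without 4 to 6 of the 6 libraries (adjusted p 0.0513 to 0.185). In bulk samples fewer cells of a type and less RNA per cell cannot be told apart, and the part of such cells in the results was not tested.

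Libraries that had entered the comparison only through the filter on low values and the estimate of the spread were read next. They gave a pair of contrasts that share the CD4 PBS libraries with each other. All contrasts of the fit share 1 spread per gene, so the shares called below are not independent of the calls in the main comparison. CD8 PBS minus CD4 PBS compares the lineages with Treg cells present, and CD4 DTx minus CD4 PBS gives the change after ablation in the other lineage. Of the 271 genes higher in CD8 DTx than in Treg PBS, 207 (76.4%) were also higher in CD8 PBS than in CD4 PBS, against 49.0% of all genes tested, and 43 (15.9%) were called higher there, against 0.742%. These 43 were 45.7% of the 94 genes called higher in CD8 PBS. Klre1 was one of them, at 654 and 220 normalized reads in CD8 PBS replicates 2 and 3 and at 0 and 5.28 in CD4 PBS (7.25, adjusted p = 0.00166), and Itgax was another, at 502 and 109 against 0 in both (7.88, adjusted p = 0.00865). Gzma was uneven, at 2985 and 192 in CD8 PBS and 340 and 128 in CD4 PBS, and was not called (1.85, adjusted p = 0.925). Without CD8 PBS replicate 2 the share was 66.4% and the called genes numbered 16, and without CD4 PBS replicate 3 they numbered 24.

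After ablation, 210 of the 271 genes (77.5%) were higher in CD4 DTx than in CD4 PBS, against 47.2% of all genes tested, and 100 (36.9%) were called higher, against 5.06%. These 100 were 15.6% of the 641 genes called higher in CD4 DTx, and 65 were called without CD4 PBS replicate 3. Gzma was at 1901, 2983 and 3246 in CD4 DTx (3.65, adjusted p = 0.0166), Gzmk at 1495, 815 and 1551 against 290 and 129 (2.67, adjusted p = 0.00632) and Ifitm1 at 29848, 8904 and 13008 against 77.9 and 1.98 (9.95, adjusted p = 0.0016). Ifitm1 was low in the 2 CD8 PBS libraries too, at 117 and 13.3. Cd8a was itself among the 100, at 103, 711 and 1302 in CD4 DTx against 31.4 and 26.4 in CD4 PBS (3.94, adjusted p = 0.00874). Cd8b1 was at 267, 1641 and 2360 against 529 and 589 and was not called (0.86, adjusted p = 0.455). The part of CD8 cell reads in the CD4 DTx differences was not tested. Prf1 was lower, at 360, 546 and 819 in CD4 DTx against 1427 and 1404 in CD4 PBS (-1.38, adjusted p = 0.0157), under the threshold for a call. Crtam (124, 79.8 and 107 against 195 and 228) and Eomes (131, 145 and 291 against 35.5 and 110) were not called after ablation in CD4 cells.

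The genes lower in CD8 DTx than in Treg PBS were read in the same contrasts. Of the 353, 197 (55.8%) were lower in CD8 PBS than in CD4 PBS, against 48.6% of all genes tested, and 7 (1.98%) were called lower, against 0.166%. Those higher there were 99 (28.0%), against 49.0% of all genes. In CD4 DTx over CD4 PBS, 167 (47.3%) were higher, against 47.2% of all genes, and 154 (43.6%) were lower, against 52.0%. Genes without any difference count in neither share. In that contrast 49 were called higher and 30 lower (13.9% and 8.50%, against 5.06% and 1.79% of all genes). Tnfrsf4 was among those called higher in CD4 cells after ablation, at 15811, 17142 and 13280 in CD4 DTx against 2106 and 631 in CD4 PBS (3.73, adjusted p = 0.00108), as was Maf, at 2966, 2949 and 2137 against 283 and 177 (3.56, adjusted p = 0.000158). Maf was at 204, 191 and 194 in CD8 DTx against 183 and 65.3 in CD8 PBS (0.83, adjusted p = 0.189). Ikzf4 (175, 193 and 308 against 220 and 388) and Cd81 (636, 946 and 712 against 715 and 1230) were called in neither contrast. The number called lower after ablation was 13 without CD4 PBS replicate 2 and 10 without CD4 PBS replicate 3.

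**Figure D5:**
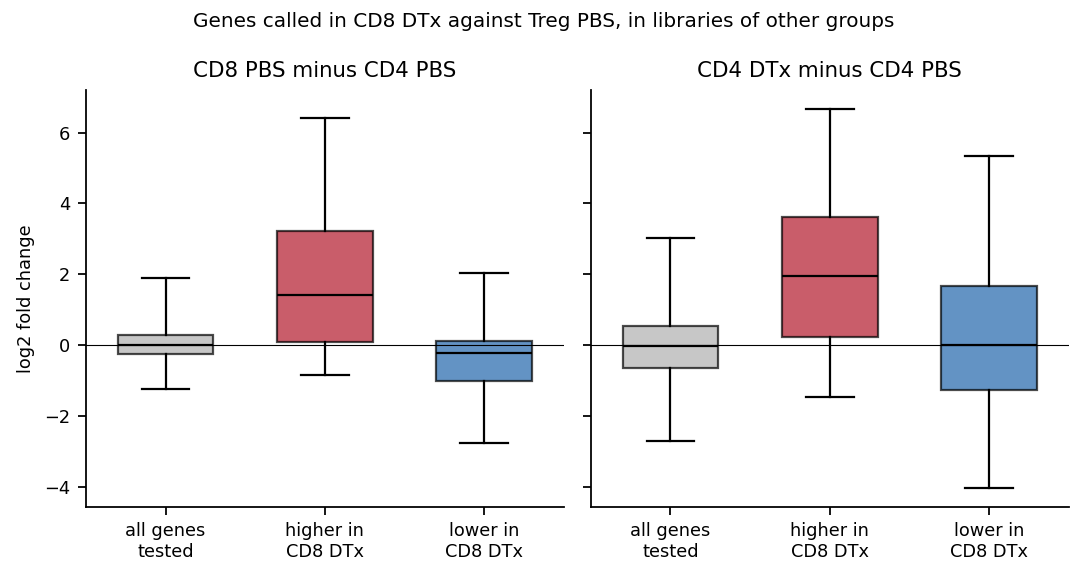
Boxes give the quartiles and median, and whiskers the 5th and 95th percentiles, of log2 fold changes between libraries outside the comparison, for all genes tested (grey), the 271 genes higher in CD8 DTx (red) and the 353 lower (blue). The median of the red boxes is 1.41 in CD8 PBS minus CD4 PBS and 1.94 in CD4 DTx minus CD4 PBS, and the blue medians are -0.23 and 0.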

How the data were processed

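As the labels and the methods describe, T cells were sorted from B16-F10 tumors and low-input SMART-type libraries were sequenced. The authors aligned reads to NCBIM37 (mm9) and counted those that mapped uniquely. Whether counting used strand is not given in the sources used here, so overlapping and antisense genes are uncertain. The deposited table holds 1 normalized signal for each of 12963 genes in 13 libraries, which the authors scaled to library size with a correction for intergenic reads. These values were all (100%) whole reads divided by a single factor per library, with a tolerance of 0.01 read, which gave totals of 15947556 to 34140486 reads. A floor of 3 reads was used, which covers counting error only. The symbols of 21 rows had turned into dates, and these rows were not named.

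Values were put on the log2(value + 1) scale and fitted with limma 3.58.1 in R 4.3.3, using the 13 libraries, a mean for every group and a trend of variance with level. Calls needed an adjusted p (Benjamini-Hochberg, over the 12667 genes) below 0.05 and an absolute log2 fold change above 2. The design had assumed a normalized unit. As alternatives, edgeR 4.0.16 and DESeq2 1.42.0 were applied to recovered reads, and scaling, pseudocount, filter, block and each library were varied. The fit was tested on simulated counts with 1 setting of the spread for every gene, and no result here rests on that test. For a gene at or under the floor in every library of 1 group, the fold is a lower bound, the other group's mean over that group's largest floor. Errors after ± are standard errors of the fit, and differences are CD8 DTx minus Treg PBS unless stated. Genes named were the label checks, the 12 called genes with the largest differences in each direction without overlap of the groups, the core members of each list, and up to 6 called members per list and direction. The comparison, lists and named members were chosen with earlier results of these data known. The methods call the samples biological replicates without naming animals, so p-values measure the spread between these libraries.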

Additional observations from a re-analysis of the deposited data

How the results depend on the processing

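The 141 named genes that were called kept their direction in all 25 alternatives, and 71 of them were called in every one. Genes called numbered 1089 (492 higher, 597 lower) at an adjusted p under 0.05 alone and 941 (412 higher) at an absolute log2 fold change above 1. By edgeR on the recovered reads 217 were higher and 212 lower, 429 in all, and by DESeq2 300 and 364. Leaving out 1 library at a time gave 451 to 688 calls, 201 to 283 higher and 225 to 405 lower. Leaving out replicate 3 of both groups, chosen after seeing the data, gave 368 calls, 177 of them lower.

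In the outside libraries, the genes higher in CD8 DTx had shares of 66.4% to 82.3% with 16 to 38 calls for CD8 PBS over CD4 PBS, and 73.4% to 77.5% with 65 to 96 calls for CD4 DTx over CD4 PBS, when 1 library was left out. Those lower had 10 to 30 calls lower after ablation, and 57.4% were higher there with a pseudocount of 10 instead of 1.

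The labels number the replicates alike in every group, sex followed the number, and the study states that replicates came from independent days, without saying that a number marks a shared day. Same-numbered CD8 DTx and Treg PBS libraries deviated together with r of 0.244, 0.00623 and 0.299. Those of CD8 DTx and CD4 DTx did so with 0.360, 0.207 and 0.590, and of CD4 DTx and CD4 PBS with -0.210 and -0.311. For CD8 PBS and CD4 PBS r was 0.189 for both numbers. That is a single value, since 2 libraries always deviate equally and oppositely from their mean. CD8 DTx replicate 2 correlated best with Treg PBS replicate 1 (0.151). Since a pair of the main comparison was under 0.1, the numbers were not taken as pairs there, and a shared day remains possible. A replicate block gave 692 calls, 287 higher and 405 lower, and 11 instead of 7 genes called lower in CD8 PBS than in CD4 PBS. The cause of these changes was not tested. Low counts limit the genes near the floor, whose fold changes depend on the pseudocount.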
